A study of Equus caballus with 68 samples.

Results

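Bone marrow mononuclear cells (BMNC) were compared after 96 hours of culture in inflamed synovial fluid (ISF) and in healthy synovial fluid (SF), which asks how an acutely inflamed joint fluid shifts the transcriptome of these cells as they turn into macrophages. The libraries were chosen by their labels, as those taken at 96 hours, which gave 16 of the 68 libraries of the series: 8 in ISF and 8 in SF, with 1 library per horse and fluid. The donors were 8 Thoroughbred horses, 6 geldings and 2 females of 3 to 9 years, named Catnip, Dealings, Dreamer, Flash, Lurie, Moon, Ollie and RimRun. The cells were not pooled between horses. Each horse's cells were isolated from the sternum by density gradient and kept in undiluted fluid of the same horse, from which native cells had been removed. SF came from the middle carpal joints and ISF from the radiocarpal joints after a lipopolysaccharide injection, so the state of the joint and the joint itself cannot be told apart in this comparison. The rest of the series covers uncultured cells and cultures of 48 hours, 6 days and 10 days from the same horses.

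Monocytes that enter a joint turn into macrophages whose programme is set by the fluid around them. Chemokines such as CCL2 call in further monocytes, adhesion molecules such as VCAM1 hold leukocytes at a surface, and proteins such as TNFAIP6 bind hyaluronan, the polymer that makes synovial fluid viscous. Macrophages also take up dead cells, digest them in lysosomes, present peptides on class II molecules and, in bone, can fuse into osteoclasts.

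RNA was sequenced on an Illumina platform from paired-end libraries. Values are in GeTMM, a unit that divides reads by the length of the gene in kilobases and by the scaled library total, so that levels of different genes can be set side by side per length. The steps between low values give back the number of reads on genes, which was 16.9 to 25.2 M in the 8 ISF libraries and 19.2 to 24.6 M in the 8 SF libraries. With 1 read on a gene of 1 kilobase worth 0.0457 to 0.0813 GeTMM, values near this level rest on single reads. Of the 7 macrophage markers, CD68 had a mean of 3361 ± 593 GeTMM in SF and 3038 ± 490.2 in ISF, and the mean of the 7 on the log2(GeTMM + 1) scale was 10.14 ± 0.30 (SD, n = 8) in SF and 10.50 ± 0.25 in ISF. The T cell gene CD3E had 28.1 ± 18.8 GeTMM in SF and 12.6 ± 5.6 in ISF and the B cell gene MS4A1 11.9 ± 6.72 GeTMM in SF and 4.7 ± 2.26 in ISF. The antibody chain JCHAIN stood higher, at 487 ± 345 GeTMM in SF and 193 ± 90 in ISF.

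The horse labels of 2 ISF libraries were in doubt. Over the 200 genes that differ most between horses and least within them, 14 of the 16 libraries were closest to the other libraries of their own horse, with Pearson correlations of 0.903 to 0.967. The ISF library labelled Dealings was closest to Dreamer (r = 0.959, against -0.278 with its own label), and the one labelled Dreamer was closest to Dealings (r = 0.918, against -0.207). Both libraries were ISF cultures of 96 hours, so an exchange of their names leaves the groups as they are. A count of horses holds with the labels as they stand and with these 2 exchanged, unless both counts are given. Counts over a gene list are also given without both libraries where they differ.

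A broad set of genes differed between the fluids. Of 14570 genes tested, 1524 passed a false discovery rate of 0.05 (limma with Benjamini-Hochberg adjustment over all genes), which is 10.5% of the genes. Of these, 898 (6.16%) were higher in ISF and 626 (4.3%) lower, and the median log2 fold change of all genes tested was -0.0027. A change of at least 1 on the log2 scale was found for 402 of the called genes, 232 higher and 170 lower. Consistency between horses was counted only among called genes with a symbol that no other entry carries and a mean of at least 5 GeTMM in either fluid. In 808 of these, every horse showed the direction of the call under both assignments of the 2 labels. Called genes outside these limits were not counted, and no share over all genes is given here. For 308 genes (2.11%) the 8 ISF values and the 8 SF values did not overlap at all. When each horse was kept as a block, 2431 genes were called with the labels as given and 2525 with the labels exchanged, and all 1524 genes were among both sets. Of all genes tested, 9.08% were then higher and 7.6% lower as labelled, and 9.31% and 8.02% with the exchange, which is the background for counts with the block in the gene lists below. Without the 2 doubtful ISF libraries 901 genes were called, of which 882 were among the 1524, none of them with another direction. Their shares were 3.54% higher and 2.64% lower. Since each library holds the RNA of a whole well, fewer cells of a type and less RNA per cell cannot be told apart in any of the results below.

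The most elevated genes in ISF included 3 CC chemokines. Fold changes are ISF minus SF on the log2(GeTMM + 1) scale with their standard errors, means are given with their SD (n = 8), and p-values are adjusted over all genes tested. CCL2 (ENSECAG00000023949), the main attractant of monocytes, ranged from 213 to 607 GeTMM in SF, with a median of 241, and from 1174 to 7472 in ISF, with a median of 4786 (log2 fold change 3.94 ± 0.37, adjusted p = 1.62e-11). Catnip had the highest SF value and Moon the lowest ISF value, and no SF library reached any ISF library. CCL8 (ENSECAG00000038853), which acts on monocytes and other leukocytes, ranged from 10.8 to 21.8 GeTMM in SF, with a median of 16.8, and from 119.6 to 692 in ISF, with a median of 268 (log2 fold change 3.94 ± 0.48, adjusted p = 2.16e-08). CCL11 (ENSECAG00000036715), an attractant of eosinophils, ranged from 0.343 to 4.85 GeTMM in SF, with a median of 3.99, and from 7.81 to 118 in ISF, with a median of 32.6 (log2 fold change 3.14 ± 0.46, adjusted p = 1.4e-06). All 3 are among the leading genes, which were picked for the same direction in 8 of 8 horses under both assignments, so that count is not a result. The fluids did not overlap in any of the 3.

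**Figure D1:**
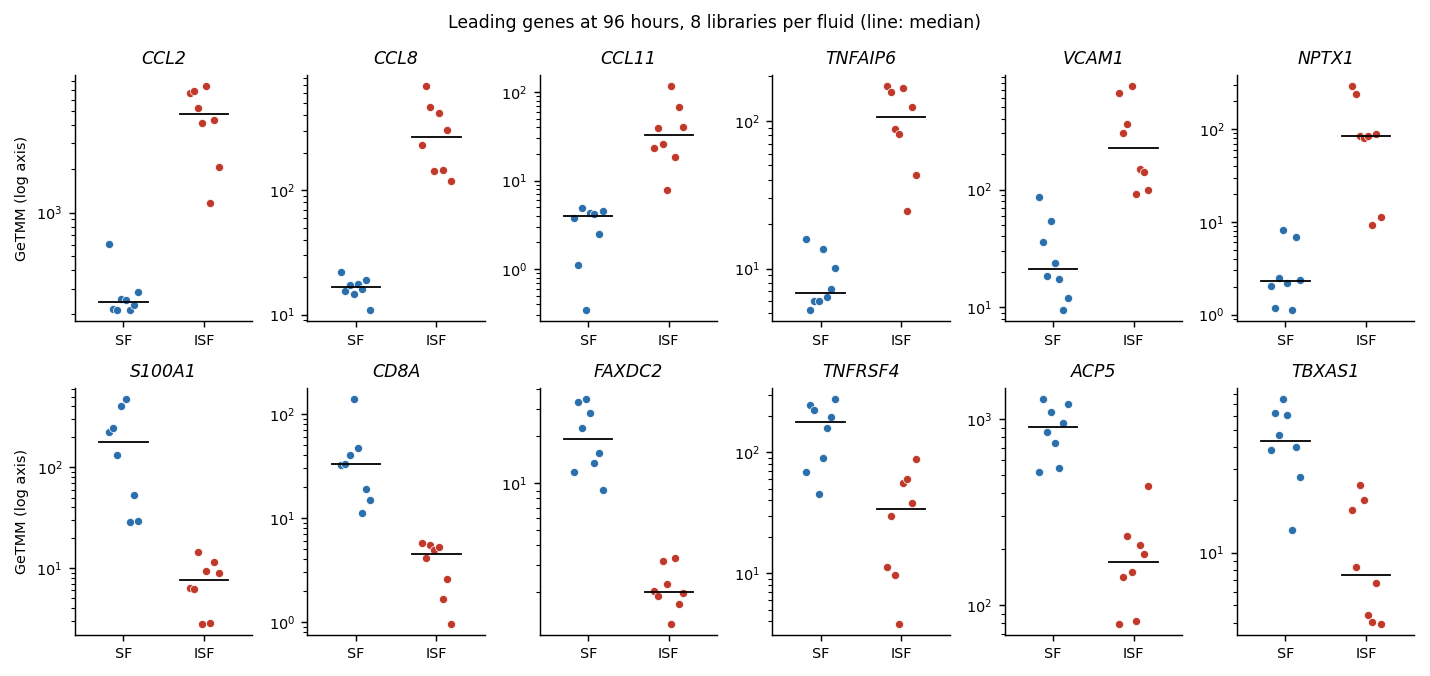
GeTMM values on a log axis for 6 genes higher in ISF (top) and 6 lower in ISF (bottom) at 96 hours, with a point for each of the 8 libraries per fluid and a line at the median. CCL2 runs from 213 to 607 in SF and from 1174 to 7472 in ISF without overlap, and S100A1 from 28.6 to 473 in SF and from 2.82 to 14.3 in ISF.

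In the list of CC chemokines and receptors, 6 of 14 tested members rose, against 6.16% of all genes, and none fell, with a median log2 fold change of 0.97. With the replicate block 10 rose, and without the 2 doubtful libraries 4. Besides the 3 above, the macrophage inflammatory chemokine CCL3 went from a mean of 94.7 ± 86.9 GeTMM in SF to 313 ± 199 in ISF (log2 fold change 1.71 ± 0.43, adjusted p = 0.00448) and was higher in 7 of 8 horses. CCL17, a ligand of CCR4, was called on very few reads, with 0 to 4 reads per SF library and 1 to 26 per ISF library. CCL22 and CCL14 missed the threshold (adjusted p = 0.0532 and 0.0596), as did the monocyte receptor for CCL2, CCR2, with 31 ± 8.8 GeTMM in SF and 27.2 ± 18.8 in ISF (adjusted p = 0.651).

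Genes of the hyaluronan and matrix list rose in 3 of 12 members and fell in 1, against 6.16% and 4.3% of all genes, and rose in 2 without the 2 doubtful libraries. TNFAIP6 (ENSECAG00000012104), also known as TSG-6, which carries heavy chains onto hyaluronan and limits leukocyte entry, ranged from 5.23 to 15.9 GeTMM in SF, with a median of 6.85, and from 24.4 to 173 in ISF, with a median of 106 (log2 fold change 3.31 ± 0.38, adjusted p = 5.63e-09), so that the lowest ISF library lay above the highest SF library. SDC4, a cell-surface heparan sulfate proteoglycan, was higher, from 8.41 ± 2.91 GeTMM in SF to 21.2 ± 6.58 in ISF (log2 fold change 1.25 ± 0.25, adjusted p = 0.000374). SPP1, which encodes the matrix protein osteopontin, was among the most abundant messages of the cultures and ranged from 1939 to 24293 GeTMM in SF, with a median of 8153, and from 6058 to 90807 in ISF, with a median of 41495 (log2 fold change 1.84 ± 0.59, adjusted p = 0.0327). It was higher in 7 of 8 horses, the fluids overlapped widely, and its call was lost without Dealings, Dreamer, Lurie or Ollie. THBS1 (ENSECAG00000008923), thrombospondin 1, fell, with values from 8.46 to 76.2 GeTMM in SF, with a median of 27.7, and from 0.838 to 13.1 in ISF, with a median of 7.35 (log2 fold change -2.17 ± 0.58, adjusted p = 0.00816). The hyaluronan receptor CD44 had 266 ± 60.6 GeTMM in SF and 329 ± 45.5 in ISF (adjusted p = 0.151).

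The adhesion molecule VCAM1 (ENSECAG00000016735) ranged from 9.46 to 86.2 GeTMM in SF, with a median of 21, and from 91.6 to 761 in ISF, with a median of 226 (log2 fold change 3.20 ± 0.55, adjusted p = 3.2e-05), again with no overlap. HS3ST1 (ENSECAG00000002570), a sulfotransferase that modifies heparan sulfate, ranged from 1.8 to 4.94 GeTMM in SF, with a median of 3.29, and from 12.3 to 84.5 in ISF, with a median of 35.6 (log2 fold change 3.04 ± 0.32, adjusted p = 3.82e-10). ICAM1, another adhesion molecule, was higher, from 27 ± 6.63 GeTMM in SF to 60 ± 18.3 in ISF (log2 fold change 1.10 ± 0.20, adjusted p = 8.2e-05). Of the metalloproteinases and their inhibitors, 2 of 14 members rose and 1 fell, against 6.16% and 4.3% of all genes, 4 rose with the block, and none fell without the 2 doubtful libraries. TIMP1, the secreted inhibitor of metalloproteinases, ranged from 63.2 to 152 GeTMM in SF, with a median of 91.4, and from 132 to 894 in ISF, with a median of 560.3 (log2 fold change 2.34 ± 0.37, adjusted p = 7.46e-06), and ADAMTS1, an aggrecan-cleaving protease, was higher, from 21.2 ± 13.1 GeTMM in SF to 80.1 ± 45 in ISF (log2 fold change 1.88 ± 0.45, adjusted p = 0.00271). TIMP2 fell from 437 ± 77.6 GeTMM in SF to 286 ± 70 in ISF (log2 fold change -0.63 ± 0.18, adjusted p = 0.0147), a call lost without Dealings. The collagenase MMP1 and the gelatinase MMP9 had 303 ± 124 GeTMM in SF and 509 ± 249 in ISF and 462 ± 199 GeTMM in SF and 756 ± 422 in ISF (adjusted p = 0.44 and 0.351), and MMP12, the macrophage elastase, 75.2 ± 81.3 GeTMM in SF and 269 ± 239 in ISF (adjusted p = 0.0885, and 0.00783 with the horse as a block). The cartilage aggrecanases ADAMTS4 and ADAMTS5 did not reach the level needed for testing.

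The remaining genes with the largest elevation in ISF have varied roles. NPTX1 (ENSECAG00000011663), a pentraxin best known from neurons, had the highest log2 fold change and ranged from 1.11 to 8.07 GeTMM in SF, with a median of 2.29, and from 9.26 to 294 in ISF, with a median of 84 (log2 fold change 4.20 ± 0.56, adjusted p = 1.82e-07). Moon had the lowest ISF value and Catnip the highest, and even Moon's lay above every SF value. ACTA2 (ENSECAG00000015145), the actin of smooth muscle and contractile fibroblasts, ranged from 4.47 to 52.4 GeTMM in SF, with a median of 12.9, and from 10.8 to 506 in ISF, with a median of 125 (log2 fold change 2.92 ± 0.56, adjusted p = 0.000197). The fluids overlapped, although each horse was higher in ISF, as the rule for leading genes requires. Of the fibroblast and stromal markers, none of 5 was called, COL1A1 had 2.33 ± 5.71 GeTMM in SF and 0.292 ± 0.522 in ISF, and their median log2 fold change was -0.32.

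SLAMF9 (ENSECAG00000022218), a receptor of the SLAM family on myeloid cells, had the largest standard error of the 30 genes and ranged from 1.13 to 11.8 GeTMM in SF, with a median of 7.32, and from 4.09 to 304 in ISF, with a median of 51.4 (log2 fold change 2.79 ± 0.68, adjusted p = 0.00339). CKB (ENSECAG00000009054), the brain-type creatine kinase, ranged from 28.8 to 143 GeTMM in SF, with a median of 81.6, and from 241 to 679.5 in ISF, with a median of 395 (log2 fold change 2.40 ± 0.30, adjusted p = 6.67e-08) without overlap. EAF2 (ENSECAG00000015083), a cofactor of transcription elongation, was higher, from 9.83 ± 4.34 GeTMM in SF to 62.3 ± 23.5 in ISF (2.55 ± 0.32). MSC (ENSECAG00000008333), a repressor of the basic helix-loop-helix family, was higher, from 0.756 ± 0.55 GeTMM in SF to 11.7 ± 9.52 in ISF (2.52 ± 0.41). TGFB3 (ENSECAG00000015029), a ligand of the transforming growth factor beta family, ranged from 1.34 to 7.68 GeTMM in SF, with a median of 3.61, and from 4.62 to 78.2 in ISF, with a median of 35.9 (log2 fold change 2.44 ± 0.46, adjusted p = 0.000137), and NXPH3 (ENSECAG00000017359), a neurexophilin, was higher, from 1.79 ± 1.29 GeTMM in SF to 20.3 ± 19.9 in ISF (2.43 ± 0.50). The adjusted p of EAF2, MSC and NXPH3 was 8.02e-08, 1.38e-05 and 0.000529.

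**Figure D2:**
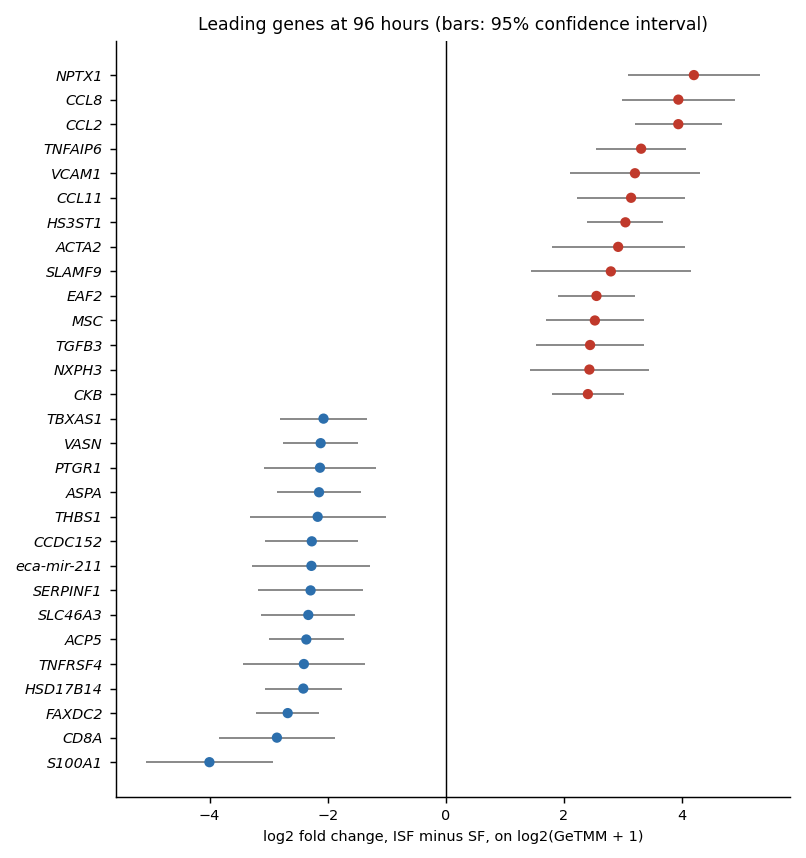
Log2 fold changes of ISF minus SF at 96 hours for 14 genes at the top and 15 at the bottom under the rule for named genes, with bars for the 95% confidence interval. The values run from 4.20 for NPTX1 to -4.0 for S100A1, and no interval reaches 0, since the rule admits only called genes.

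S100A1 (ENSECAG00000022939), a calcium-binding protein of muscle and brain, had the largest decline and ranged from 28.6 to 473 GeTMM in SF, with a median of 177, and from 2.82 to 14.3 in ISF, with a median of 7.58 (log2 fold change -4.0 ± 0.54, adjusted p = 2.16e-07). Its neighbour S100A13, which takes part in the export of some growth factors, ranged from 25.6 to 214 GeTMM in SF, with a median of 90, and from 14 to 41.2 in ISF, with a median of 24.4 (log2 fold change -1.89 ± 0.35, adjusted p = 8.93e-05), and was lower in 7 of 8 horses. The 2 genes overlap in the horse reference annotation (RefSeq, assembly TB-T2T), and the strand setting of the counting is not given in the sources used here, so their reads may not be separate. Of the 11 tested S100 genes, these 2 fell, against 4.3% of all genes, and 1, S100A11, rose, against 6.16%, though not without the 2 doubtful libraries (2985 ± 525 GeTMM in SF and 4367 ± 949 in ISF, adjusted p = 0.0433). The alarmin S100A12 had 2637 ± 1956 GeTMM in SF and 3820 ± 2853 in ISF (adjusted p = 0.848).

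CD8A (ENSECAG00000013261), the alpha chain of the CD8 coreceptor of cytotoxic T cells, ranged from 11.2 to 139 GeTMM in SF, with a median of 32.9, and from 0.963 to 5.77 in ISF, with a median of 4.52 (log2 fold change -2.86 ± 0.49, adjusted p = 3.58e-05) with no overlap. TNFRSF4 (ENSECAG00000019948), the costimulatory receptor OX40, ranged from 45.7 to 276 GeTMM in SF, with a median of 179, and from 3.84 to 88.9 in ISF, with a median of 33.9 (log2 fold change -2.40 ± 0.52, adjusted p = 0.000861). The fluids overlapped in TNFRSF4 although each horse was lower in ISF, as the rule for leading genes requires.

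Several of the genes with the largest decline encode enzymes of lipid mediators, steroids and lysosomes. TBXAS1 (ENSECAG00000017160), thromboxane synthase, ranged from 13.5 to 74.5 GeTMM in SF, with a median of 43.1, and from 3.95 to 24.3 in ISF, with a median of 7.48 (log2 fold change -2.07 ± 0.36, adjusted p = 4.96e-05). PTGR1 (ENSECAG00000004698), which inactivates leukotriene B4 and prostaglandins, ranged from 28.4 to 209 GeTMM in SF, with a median of 82, and from 5.74 to 45.3 in ISF, with a median of 19.2 (log2 fold change -2.13 ± 0.48, adjusted p = 0.00131). HSD17B14 (ENSECAG00000020714), a steroid dehydrogenase, ranged from 45.1 to 119 GeTMM in SF, with a median of 72.4, and from 5.12 to 24.3 in ISF, with a median of 11.3 (log2 fold change -2.41 ± 0.33, adjusted p = 2.71e-07) with no overlap. FAXDC2 (ENSECAG00000014962), a protein of the fatty acid hydroxylase family, ranged from 9 to 34.7 GeTMM in SF, with a median of 19.2, and from 1.26 to 3.32 in ISF, with a median of 2.02 (log2 fold change -2.68 ± 0.27, adjusted p = 1.19e-10), also with no overlap, and its 8 ISF values lay close together. ACP5 (ENSECAG00000012113), the tartrate-resistant acid phosphatase used as an osteoclast marker, ranged from 517 to 1281 GeTMM in SF, with a median of 901, and from 79.6 to 437 in ISF, with a median of 169.5 (log2 fold change -2.36 ± 0.32, adjusted p = 2.69e-07). RimRun had the highest ISF value of ACP5, which was still below the lowest SF value. SLC46A3 (ENSECAG00000011432), a transporter of the lysosomal membrane, fell from 80.9 ± 36.5 GeTMM in SF to 14.6 ± 5.81 in ISF (log2 fold change -2.33 ± 0.40, adjusted p = 3.14e-05). ASPA (ENSECAG00000021534), which splits N-acetylaspartate, fell from 8.27 ± 5.8 GeTMM in SF to 0.789 ± 0.699 in ISF (log2 fold change -2.15 ± 0.36, adjusted p = 1.97e-05).

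Among secreted and membrane proteins, SERPINF1 (ENSECAG00000022279), the antiangiogenic factor PEDF, fell from 15 ± 10.4 GeTMM in SF to 2.01 ± 1.55 in ISF (log2 fold change -2.29 ± 0.45, adjusted p = 0.000225). VASN (ENSECAG00000004264), vasorin, which binds transforming growth factor beta, fell from 15.2 ± 6.65 GeTMM in SF to 3.05 ± 2.41 in ISF (log2 fold change -2.12 ± 0.32, adjusted p = 2.24e-06), and CCDC152 (ENSECAG00000000835), a coiled-coil protein, from 40.7 ± 12.3 GeTMM in SF to 9.04 ± 5.59 in ISF (log2 fold change -2.27 ± 0.39, adjusted p = 3.62e-05). The entry eca-mir-211 (ENSECAG00000026445), the precursor of the microRNA miR-211, went from 32.4 ± 6.85 GeTMM in SF to 6.61 ± 4.12 in ISF (log2 fold change -2.28 ± 0.50, adjusted p = 0.00107). It rests on 40 to 71 reads per SF library and 4 to 24 per ISF library. The entry lies inside TRPM1 in the RefSeq annotation, so that reads of the host transcript cannot be told apart from those of the microRNA precursor, and TRPM1 itself fell from 22.9 ± 7.6 GeTMM in SF to 8.56 ± 6.76 in ISF (log2 fold change -1.51 ± 0.29, adjusted p = 0.000207).

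**Figure D3:**
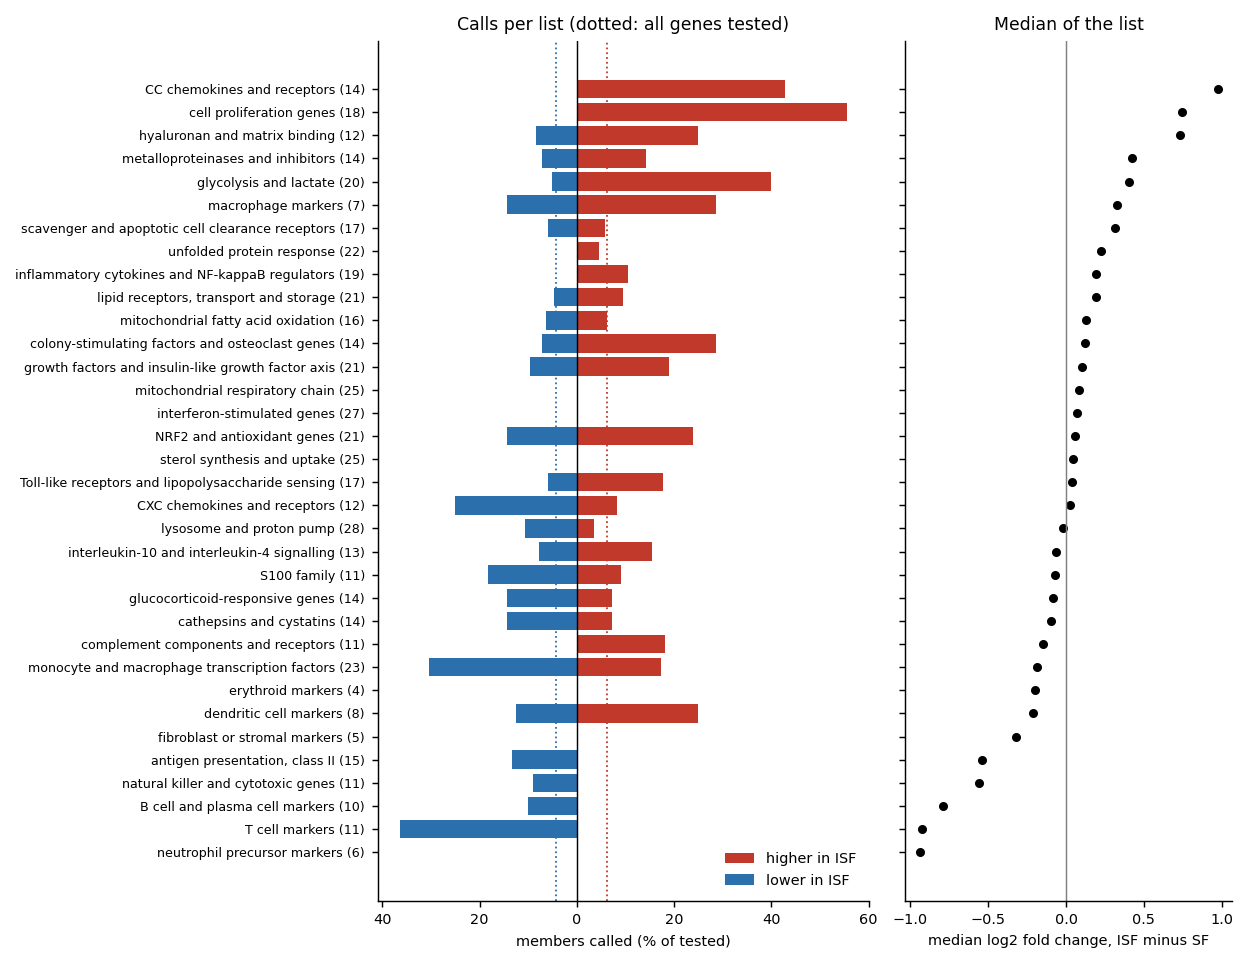
For each of 34 gene lists, the share of tested members called higher (red) or lower (blue) in ISF at 96 hours on the left, with dotted lines at 6.16% and 4.3% for all genes tested, and the median log2 fold change on the right. The number of tested members stands in brackets. CC chemokines have the highest median (0.97) and neutrophil precursor markers the lowest (-0.94).

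The lists of other blood cells had negative medians, and how many of their members were called depended on whether each horse was compared with itself. Of 11 T cell markers tested, 4 fell, against 4.3% lower among all genes, and none rose: CD8A, the adaptor TRAT1 (12 ± 7.01 GeTMM in SF and 3.5 ± 1.39 in ISF, adjusted p = 0.0115), the receptor CD6 (4.2 ± 2.19 GeTMM in SF and 1.77 ± 1.12 in ISF, adjusted p = 0.0157) and the transcription factor BCL11B (1.58 ± 1.06 GeTMM in SF and 0.511 ± 0.246 in ISF, adjusted p = 0.0495). Their median log2 fold change was -0.92, and with the replicate block 10 of the 11 fell under both assignments, against 7.6% and 8.02% of all genes in those fits. Without the doubtful libraries 2 fell. The defining T cell genes CD3D, CD3E and CD3G had an adjusted p of 0.184, 0.12 and 0.0792, and of 0.0178, 0.00425 and 0.00128 with the block. CD4, which monocytes also carry, had 193 ± 39.2 GeTMM in SF and 203 ± 67.1 in ISF (adjusted p = 0.983). The mean of the 11 markers ranged from 2.79 to 4.76 in SF and from 2.03 to 3.35 in ISF on the log2 scale, and was lower in ISF in 7 of 8 horses as labelled and in 8 of 8 with the labels exchanged.

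Natural killer and cytotoxic genes fell in 1 of 11 members, KLRD1 (2.49 ± 1.27 GeTMM in SF and 0.817 ± 0.549 in ISF, adjusted p = 0.0235), in 6 with the block and in none without the 2 doubtful libraries, against 4.3%, 7.6% and 2.64% of all genes. B cell and plasma cell markers fell in 1 of 10, the B cell regulator PAX5 (2.59 ± 1.27 GeTMM in SF and 0.92 ± 0.636 in ISF, adjusted p = 0.0269), and in 7 with the block, against 4.3% and 7.6% of all genes. JCHAIN, the joining chain of antibodies given above, did not pass (adjusted p = 0.144, and 0.0192 with the block). None of 6 neutrophil precursor markers was called, though their median was -0.94 and 3 fell with the block, against 7.6% of all genes in that fit. MPO, the peroxidase of neutrophil granules, had 397 ± 186 GeTMM in SF and 158 ± 126 in ISF (adjusted p = 0.0954, and 0.0103 with the block). The mean of these 6 markers varied more between libraries of a fluid than any other blood cell list, 7.19 ± 1.56 in ISF and 7.86 ± 1.05 in SF (SD, n = 8). None of 4 erythroid markers was called with or without the block, and the haemoglobin stabiliser AHSP stayed below 1 GeTMM on average in both fluids. How far cell numbers contributed to these differences was not tested.

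**Figure D4:**
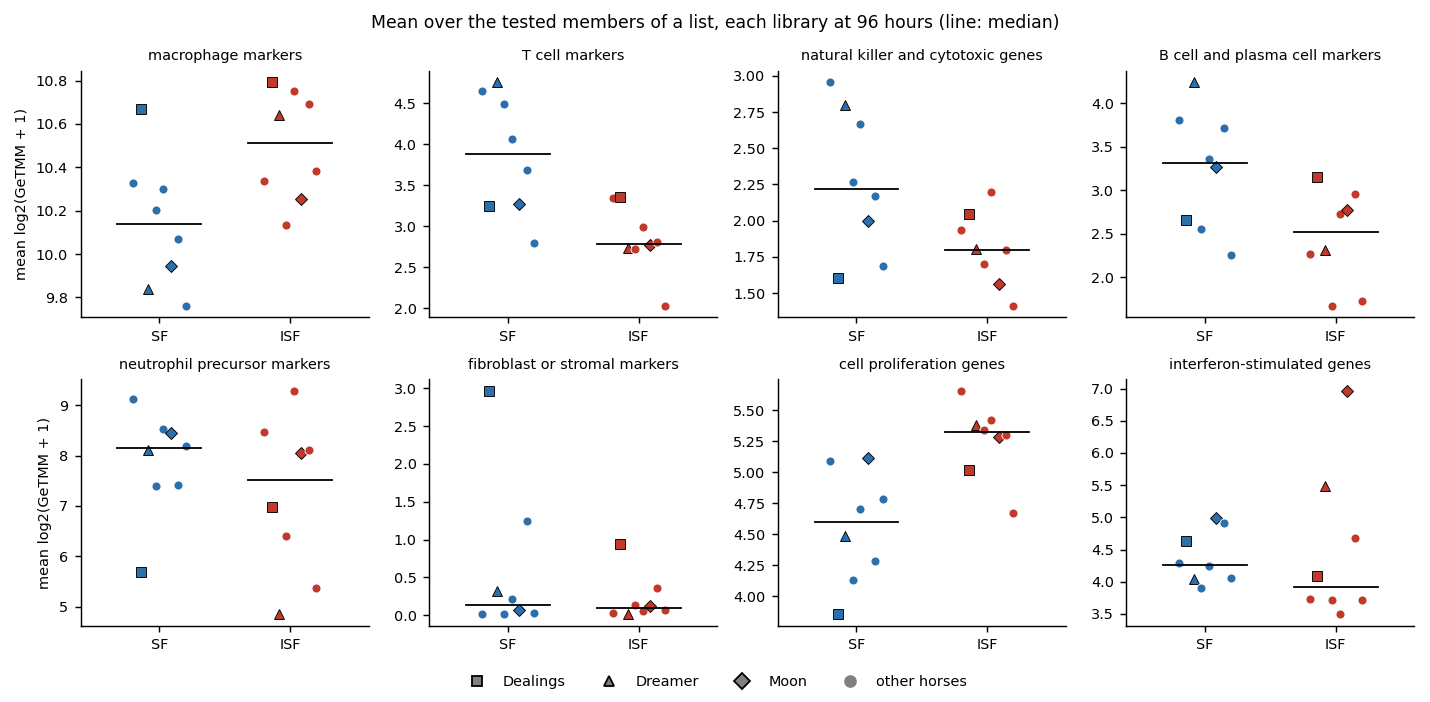
Mean log2(GeTMM + 1) over the tested members of 8 lists in each library at 96 hours, with SF in blue, ISF in red and a line at the median. Squares, triangles and diamonds mark the libraries labelled Dealings, Dreamer and Moon. T cell markers range from 2.79 to 4.76 in SF and from 2.03 to 3.35 in ISF, and the ISF library of Moon stands at 6.97 in the interferon-stimulated genes.

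Within the macrophage markers 2 of 7 rose and 1 fell, against 6.16% and 4.3% of all genes, with 1 in each direction without the 2 doubtful libraries. MSR1, the scavenger receptor A1 that takes up modified lipoproteins, ranged from 54.9 to 294 GeTMM in SF, with a median of 200.4, and from 182 to 842 in ISF, with a median of 526 (log2 fold change 1.48 ± 0.31, adjusted p = 0.00051), and SPP1 was the other. GPNMB, a glycoprotein of lipid-laden macrophages, ranged from 8053 to 23135 GeTMM in SF, with a median of 13313, and from 2212 to 9302 in ISF, with a median of 4616 (log2 fold change -1.50 ± 0.29, adjusted p = 0.000202) and was lower in 8 of 8 horses. CD163, the haemoglobin scavenger receptor, had 739 ± 477 GeTMM in SF and 1168 ± 770.4 in ISF (adjusted p = 0.394), MRC1, the mannose receptor, 176 ± 91.2 GeTMM in SF and 166 ± 96.9 in ISF (adjusted p = 0.866) and TREM2 438 ± 89.2 GeTMM in SF and 564 ± 175 in ISF (adjusted p = 0.483). Dendritic cell markers also passed in both directions, 2 of 8 higher and 1 lower, against the same shares of all genes, with 1 each without the 2 doubtful libraries. BATF3, a transcription factor of cross-presenting dendritic cells, was higher, from 1.74 ± 0.941 GeTMM in SF to 5.68 ± 2.48 in ISF (log2 fold change 1.27 ± 0.30, adjusted p = 0.00246), as did FSCN1 (51 ± 19.7 GeTMM in SF and 90 ± 34.4 in ISF, adjusted p = 0.039), while the progenitor receptor FLT3 fell from 7.58 ± 2.3 GeTMM in SF to 3.21 ± 1.17 in ISF (log2 fold change -1.03 ± 0.24, adjusted p = 0.00209) without overlap between the fluids.

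The list with the most members higher in ISF was that of the cell cycle. Of 18 proliferation genes tested, 10 rose and none fell, against 6.16% higher among all genes. All 18 fold changes were positive, and the median was 0.75. With the block 14 rose, and without the 2 doubtful libraries 5. The mitotic cyclin CCNB1 ranged from 10.6 to 30.5 GeTMM in SF, with a median of 18.7, and from 22.9 to 58.9 in ISF, with a median of 39.8 (log2 fold change 1.07 ± 0.32, adjusted p = 0.0208). CDK1, the kinase it activates, ranged from 13.7 to 31.8 GeTMM in SF, with a median of 21.3, and from 26.4 to 54.3 in ISF, with a median of 40.1 (log2 fold change 0.93 ± 0.23, adjusted p = 0.00434), and both genes were higher in 8 of 8 horses with overlapping fluids. The mitotic kinase PLK1 was higher, from 13.2 ± 5.36 GeTMM in SF to 23.6 ± 5.72 in ISF (adjusted p = 0.0301). All 6 subunits of the replicative helicase rose, with MCM2, MCM3, MCM4, MCM5, MCM6 and MCM7 at log2 fold changes of 0.53 for MCM7 to 0.84 for MCM5. TOP2A, the topoisomerase of dividing cells, had 31.1 ± 14.1 GeTMM in SF and 44.2 ± 13.4 in ISF (adjusted p = 0.291), and the nucleotide enzyme TYMS 61.2 ± 21.3 GeTMM in SF and 66.6 ± 28 in ISF (adjusted p = 0.848).

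In the list of inflammatory cytokines and NF-kappaB regulators, 2 of 19 rose, against 6.16% of all genes, namely ICAM1 and the cytokine IL18 (159 ± 61.7 GeTMM in SF and 302 ± 117 in ISF, adjusted p = 0.0207), 1 of them without the 2 doubtful libraries, none fell, and the median log2 fold change was 0.20. IL1B had 9.55 ± 3.65 GeTMM in SF and 7.15 ± 2.26 in ISF (adjusted p = 0.559), TNF 7.43 ± 2.71 GeTMM in SF and 10.8 ± 3.28 in ISF (adjusted p = 0.179) and IL6 0.308 ± 0.321 GeTMM in SF and 0.102 ± 0.121 in ISF (adjusted p = 0.455). The receptor antagonist IL1RN had 30.6 ± 14.4 GeTMM in SF and 67.6 ± 42.8 in ISF (adjusted p = 0.0658, and 0.0341 with the block). Of 13 genes of interleukin-10 and interleukin-4 signalling, SOCS3, a feedback inhibitor of cytokine receptors, rose and ranged from 12.6 to 56.4 GeTMM in SF, with a median of 27.4, and from 60.1 to 131 in ISF, with a median of 84 (log2 fold change 1.63 ± 0.36, adjusted p = 0.0011). IL4R, the receptor of interleukins 4 and 13, ranged from 172 to 332 GeTMM in SF, with a median of 221, and from 258 to 733 in ISF, with a median of 543 (log2 fold change 1.10 ± 0.18, adjusted p = 1.18e-05), and KLF4 fell from 25.6 ± 3.86 GeTMM in SF to 13.9 ± 4.83 in ISF (log2 fold change -0.90 ± 0.25, adjusted p = 0.0137). IL10 itself had 14.2 ± 7.96 GeTMM in SF and 10 ± 6.45 in ISF (adjusted p = 0.429). These 13 genes thus held 2 higher and 1 lower, against 6.16% and 4.3% of all genes.

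In the list of CXC chemokines and receptors 1 of 12 rose and 3 fell, against 6.16% and 4.3% of all genes, with 1 in each direction without the 2 doubtful libraries. CXCL1, an attractant of neutrophils, went from 35.3 ± 10.3 GeTMM in SF to 85 ± 57 in ISF (log2 fold change 0.96 ± 0.32, adjusted p = 0.0408), a call lost without 6 of the horses in turn, while CXCL8 had 13.3 ± 4.56 GeTMM in SF and 26.1 ± 12 in ISF (adjusted p = 0.23). The 3 that fell were receptors. CXCR3, carried by activated T cells and natural killer cells, ranged from 13.8 to 36.5 GeTMM in SF, with a median of 27, and from 6.37 to 16.8 in ISF, with a median of 9.57 (log2 fold change -1.20 ± 0.21, adjusted p = 3.89e-05). CXCR4, which retains cells in bone marrow, went from 316 ± 50.9 GeTMM in SF to 179 ± 82 in ISF (adjusted p = 0.0178), and the fractalkine receptor CX3CR1 from 2.15 ± 1.41 GeTMM in SF to 0.81 ± 0.307 in ISF (adjusted p = 0.037). The T cell and natural killer lists above, which hold other genes of cells that carry CXCR3, had medians of -0.92 and -0.56, and their part in the decline of CXCR3 was not tested.

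No interferon-stimulated gene of 27 was called in either direction by limma, 1 rose with the block, and the median was 0.071. The ISF libraries spread more widely than the SF libraries, with list means of 4.49 ± 1.20 and 4.38 ± 0.42 (SD, n = 8). Moon's ISF library had the highest mean, 6.97, and the one labelled Dreamer followed at 5.48. The median of the 8 ISF libraries was 3.91, below the SF median of 4.27, and the ISF mean without Moon was 4.13. The list mean was higher in ISF in only 2 of 8 horses as labelled and in 3 with the labels exchanged. In Moon's ISF library ISG15 reached 570.1 GeTMM and MX1 354, against medians of 16.1 and 23.7 over the 8 ISF libraries. Of the genes for sensing microbes, 3 of 17 rose and 1 fell, against 6.16% and 4.3% of all genes, with 1 higher and 1 lower without the 2 doubtful libraries. TLR8, an endosomal receptor of RNA, ranged from 13.4 to 35.7 GeTMM in SF, with a median of 14.3, and from 22.2 to 108 in ISF, with a median of 49.4 (log2 fold change 1.58 ± 0.25, adjusted p = 5.29e-06) and was higher in 8 of 8 horses. CD14, the coreceptor of lipopolysaccharide, has 2 entries, and the one with the higher mean was higher in ISF, from 0.585 ± 0.332 GeTMM in SF to 2.8 ± 1.98 in ISF (adjusted p = 0.011). This entry was low in both fluids, at 0.323 to 1.31 GeTMM in SF and 0.943 to 6.4 in ISF, and the other entry is not given here. The adaptor TICAM1 was higher, from 6.26 ± 0.798 GeTMM in SF to 9.43 ± 1.62 in ISF (adjusted p = 0.0149). TLR6 fell from 17.3 ± 2.05 GeTMM in SF to 12.3 ± 4.65 in ISF (adjusted p = 0.0345). The TLR4 entry was at or near 0 in all 16 libraries and was not tested.

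Of the metabolic lists, glycolysis held most of the calls. Of 20 tested, 8 rose and 1 fell, against 6.16% and 4.3% of all genes. In this list 18 fold changes were positive and the median was 0.40, with 7 higher and none lower without the 2 doubtful libraries. PFKP, a phosphofructokinase isoform, ranged from 32 to 55.6 GeTMM in SF, with a median of 39.5, and from 64.8 to 113 in ISF, with a median of 89.9 (log2 fold change 1.11 ± 0.15, adjusted p = 1.51e-07), and PFKFB3, which makes the activator of phosphofructokinase, from 176 to 307 GeTMM in SF, with a median of 209, and from 363 to 648 in ISF, with a median of 453 (log2 fold change 1.06 ± 0.18, adjusted p = 3.58e-05). GAPDH, a glycolytic enzyme often taken as a reference gene, ranged from 913 to 1471 GeTMM in SF, with a median of 1188, and from 1712 to 2763 in ISF, with a median of 2337 (log2 fold change 0.93 ± 0.21, adjusted p = 0.00126) and TPI1, triosephosphate isomerase, from 286 to 416 GeTMM in SF, with a median of 363, and from 508 to 814 in ISF, with a median of 580.2 (log2 fold change 0.81 ± 0.15, adjusted p = 0.000128). In these 4 genes no SF library reached an ISF library. ENO1, LDHA, PGAM1 and PKM were also higher, with log2 fold changes of 0.72, 0.70, 0.66 and 0.61. The lactate carrier SLC16A1 was the member that fell, from 277 ± 62.4 GeTMM in SF to 183 ± 43.1 in ISF (adjusted p = 0.0297).

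None of 25 genes of the mitochondrial respiratory chain was called (median 0.087), and none of 25 genes of sterol synthesis and uptake (median 0.044), with or without the block. HMGCS1 and MVK, enzymes of the mevalonate pathway, had 41.4 ± 24.6 GeTMM in SF and 30.1 ± 9.75 in ISF and 19.2 ± 6.72 GeTMM in SF and 17.4 ± 4.71 in ISF (adjusted p = 0.684 and 0.821). Among 21 lipid receptor, transport and storage genes, 2 rose and 1 fell, against 6.16% and 4.3% of all genes, and 6 rose with the block against 9.08% of all genes. LPL, the lipase that frees fatty acids from lipoproteins, ranged from 17.4 to 156 GeTMM in SF, with a median of 52.2, and from 51.2 to 723 in ISF, with a median of 189.8 (log2 fold change 1.82 ± 0.48, adjusted p = 0.00774). CPT1A, the gate of mitochondrial fatty acid import, was higher, from 73.7 ± 31.8 GeTMM in SF to 129.8 ± 40.7 in ISF (log2 fold change 0.84 ± 0.26, adjusted p = 0.0251). The fatty acid carrier FABP4 had 128 ± 105 GeTMM in SF and 669.5 ± 679 in ISF (adjusted p = 0.0862, and 0.00231 with the block). In the fatty acid oxidation list, of 16 genes, CPT1A was the member that rose and ECI2, an isomerase for unsaturated fatty acids, the member that fell (43.1 ± 18.9 GeTMM in SF and 22.1 ± 3.32 in ISF, adjusted p = 0.00237), against 6.16% and 4.3% of all genes. The nuclear receptor PPARG had 26.2 ± 5.11 GeTMM in SF and 29.9 ± 4.37 in ISF (adjusted p = 0.462) and its coactivator PPARGC1A 0.982 ± 0.545 GeTMM in SF and 1.92 ± 0.948 in ISF (adjusted p = 0.196).

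Of 28 lysosomal genes tested, 1 rose and 3 fell, against 6.16% and 4.3% of all genes, 3 rose and 5 fell with the block, and 1 rose and 2 fell without the 2 doubtful libraries, with a median of -0.022. LIPA, the acid lipase that splits cholesteryl esters, ranged from 667 to 1512 GeTMM in SF, with a median of 1168, and from 253 to 646 in ISF, with a median of 445 (log2 fold change -1.34 ± 0.27, adjusted p = 0.000384) with no overlap. TFEB, a transcription factor of lysosomal genes, fell from 136 ± 39.7 GeTMM in SF to 83.4 ± 28 in ISF (log2 fold change -0.72 ± 0.18, adjusted p = 0.00498), and MCOLN1, a calcium channel of lysosomes, from 91.7 ± 18 GeTMM in SF to 62.9 ± 16 in ISF (adjusted p = 0.0246). ATP6V1B2, a subunit of the proton pump, was higher, from 295 ± 33.1 GeTMM in SF to 416 ± 83.6 in ISF (adjusted p = 0.0144). In the cathepsin list of 14, 1 member rose and 2 fell, against 6.16% and 4.3% of all genes, with 1 each without the 2 doubtful libraries. CTSL was higher, from 51.6 ± 16.9 GeTMM in SF to 120.3 ± 54.4 in ISF (log2 fold change 1.15 ± 0.30, adjusted p = 0.00664), and the inhibitor CST3, cystatin C, fell from 525 ± 134 GeTMM in SF to 271 ± 85.7 in ISF (log2 fold change -0.96 ± 0.26, adjusted p = 0.0104). CTSS, the cathepsin that trims the class II invariant chain, fell from 2307 ± 565 GeTMM in SF to 1458 ± 182 in ISF (log2 fold change -0.63 ± 0.16, adjusted p = 0.00505) and was lower in 8 of 8 horses. CTSB, an abundant lysosomal protease here, had 10057 ± 1793 GeTMM in SF and 10573 ± 2084 in ISF (adjusted p = 0.886).

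Of 15 class II antigen presentation genes, 2 fell, against 4.3% of all genes, and none rose. The 2 were CTSS and HLA-DOB, a modulator of peptide loading (16.5 ± 6.8 GeTMM in SF and 7.73 ± 2.67 in ISF, adjusted p = 0.043). The median was -0.54. With the block 1 rose and 6 fell, with the labels exchanged 7 fell, and without the 2 doubtful libraries 1 fell, beside 7.6%, 8.02% and 2.64% lower among all genes in those fits. The class II chain DRA had 1616 ± 401 GeTMM in SF and 1212 ± 583 in ISF and the invariant chain CD74 1697 ± 387 GeTMM in SF and 1251 ± 585 in ISF (adjusted p = 0.227 and 0.232, and 0.0922 and 0.121 with the block). In the complement list of 11, 2 rose, against 6.16% of all genes, and 1 without the 2 doubtful libraries. ITGAX, the CD11c chain of complement receptor 4, ranged from 62.9 to 114 GeTMM in SF, with a median of 91.6, and from 139 to 379 in ISF, with a median of 249 (log2 fold change 1.48 ± 0.23, adjusted p = 3.54e-06), and C3AR1, the receptor of C3a, ranged from 34.7 to 79.1 GeTMM in SF, with a median of 69, and from 86.5 to 227 in ISF, with a median of 146 (log2 fold change 1.24 ± 0.34, adjusted p = 0.0111), both without overlap. Of 17 scavenger and clearance receptors 1 rose and 1 fell, against 6.16% and 4.3% of all genes. MSR1 rose and SCARB2, a carrier of lysosomal glucocerebrosidase, fell from 552 ± 152 GeTMM in SF to 338 ± 98.4 in ISF (log2 fold change -0.71 ± 0.17, adjusted p = 0.00365). The bridging receptor MERTK had 38.7 ± 9.77 GeTMM in SF and 53.9 ± 16 in ISF (adjusted p = 0.26).

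Genes of the osteoclast list were called in both directions. Of 14 tested, 4 rose and 1, ACP5, fell, against 6.16% and 4.3% of all genes, and 2 rose without the 2 doubtful libraries. OCSTAMP, which takes part in the fusion of osteoclasts, ranged from 0.473 to 2.93 GeTMM in SF, with a median of 1.71, and from 2.43 to 22 in ISF, with a median of 9.1 (log2 fold change 1.76 ± 0.34, adjusted p = 0.000211). TNFRSF11A, the receptor RANK, was higher, from 4.11 ± 1.16 GeTMM in SF to 10.8 ± 6.25 in ISF (adjusted p = 0.0254), and the integrin chain ITGB3 from 2.73 ± 0.798 GeTMM in SF to 8.28 ± 3.86 in ISF (adjusted p = 0.0247). IL34, a ligand of the receptor encoded by CSF1R, was called at a level close to 0, 0.146 ± 0.164 GeTMM in SF and 1.87 ± 2.08 in ISF (adjusted p = 0.0463). CSF1 itself had 25.7 ± 35.9 GeTMM in SF and 36 ± 34.8 in ISF and CSF1R 190.3 ± 73.4 GeTMM in SF and 233 ± 107 in ISF (adjusted p = 0.679 and 0.672). The bone collagenase CTSK had 4243 ± 1432 GeTMM in SF and 2776 ± 1697 in ISF (adjusted p = 0.125).

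In the growth factor list, 4 of 21 rose and 2 fell, against 6.16% and 4.3% of all genes, 7 rose with the block, and 3 rose without the 2 doubtful libraries. HBEGF, a ligand of the epidermal growth factor receptor, ranged from 0.351 to 1.36 GeTMM in SF, with a median of 0.71, and from 1.66 to 11.3 in ISF, with a median of 3.27 (log2 fold change 1.38 ± 0.25, adjusted p = 7.12e-05) without overlap, and AREG, another ligand of that receptor, was higher, from 0.322 ± 0.399 GeTMM in SF to 1.78 ± 1.15 in ISF (adjusted p = 0.0014). IGFBP6, a binding protein of insulin-like growth factors, was higher, from 3.88 ± 2.25 GeTMM in SF to 14.1 ± 10.1 in ISF (log2 fold change 1.49 ± 0.44, adjusted p = 0.0191). IGF1 fell, and ranged from 1.35 to 94.2 GeTMM in SF, with a median of 22.7, and from 0.237 to 8.49 in ISF, with a median of 2.8 (log2 fold change -2.19 ± 0.62, adjusted p = 0.0139), with 7 of 8 horses lower in ISF and a call lost without Flash, Lurie or Ollie. PDGFB fell from 15.4 ± 6.12 GeTMM in SF to 6.94 ± 4.49 in ISF (adjusted p = 0.0252).

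Of 21 genes of the NRF2 and antioxidant list, 5 rose and 3 fell, against 6.16% and 4.3% of all genes, with 4 higher without the 2 doubtful libraries. PRDX6, a peroxiredoxin, ranged from 60.4 to 96.8 GeTMM in SF, with a median of 75.6, and from 97.6 to 230.3 in ISF, with a median of 178 (log2 fold change 1.14 ± 0.23, adjusted p = 0.000393), and ME1, the malic enzyme that makes NADPH, from 26.5 to 52.6 GeTMM in SF, with a median of 37, and from 59.7 to 107 in ISF, with a median of 78.4 (log2 fold change 1.08 ± 0.18, adjusted p = 2.64e-05), both without overlap. HMOX1, which breaks down haem, was higher, from 651 ± 309 GeTMM in SF to 1432 ± 664 in ISF (log2 fold change 1.12 ± 0.30, adjusted p = 0.00947), and GCLM, a subunit of the first enzyme of glutathione synthesis, from 34.7 ± 9.23 GeTMM in SF to 82.6 ± 48 in ISF (log2 fold change 1.05 ± 0.27, adjusted p = 0.00608). SRXN1 was the fifth. Glutathione reductase GSR, catalase CAT and NFE2L2, the gene of NRF2 itself, fell, with log2 fold changes of -0.71, -0.57 and -0.44 and adjusted p of 0.0199, 0.00162 and 0.0403. In the list of the unfolded protein response 1 of 22 rose, the chaperone HSPA5 (458 ± 58.5 GeTMM in SF and 679 ± 102 in ISF, adjusted p = 0.0318), a share below the 6.16% of all genes. With the block 3 rose, and without the 2 doubtful libraries none. Of 14 genes that respond to glucocorticoids 1 rose and 2 fell, against 6.16% and 4.3% of all genes. KLF9 rose (5.83 ± 0.835 GeTMM in SF and 10.8 ± 2.6 in ISF, adjusted p = 0.0438), and TSC22D3 (24.4 ± 15 GeTMM in SF and 11.4 ± 4.58 in ISF, adjusted p = 0.0472) and CEBPD fell, of which CEBPD alone passed without the 2 doubtful libraries.

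Of 23 transcription factors of monocytes and macrophages 4 rose and 7 fell, against 6.16% and 4.3% of all genes, with 3 higher and 5 lower without the 2 doubtful libraries. BHLHE41 ranged from 15 to 73.5 GeTMM in SF, with a median of 44.9, and from 4.09 to 29.3 in ISF, with a median of 8.29 (log2 fold change -1.82 ± 0.40, adjusted p = 0.00107) while its relative BHLHE40 ranged from 29.2 to 94.9 GeTMM in SF, with a median of 34.3, and from 50.1 to 135 in ISF, with a median of 88.4 (log2 fold change 1.09 ± 0.28, adjusted p = 0.00495), so the 2 members of this family of repressors moved in opposite directions. The immediate early gene NR4A1 was higher, from 1.47 ± 0.939 GeTMM in SF to 5.44 ± 2.94 in ISF (log2 fold change 1.31 ± 0.31, adjusted p = 0.00265), CEBPB from 221 ± 92.8 GeTMM in SF to 411 ± 146 in ISF (adjusted p = 0.00588) and RUNX3 from 31.2 ± 7.48 GeTMM in SF to 48.4 ± 9.03 in ISF (adjusted p = 0.0431). BATF fell from 45.7 ± 11.1 GeTMM in SF to 21.8 ± 9.22 in ISF (log2 fold change -1.09 ± 0.29, adjusted p = 0.0075), and CEBPD, which is also in the glucocorticoid list, from 144 ± 33.9 GeTMM in SF to 72.4 ± 19.2 in ISF (log2 fold change -0.99 ± 0.20, adjusted p = 0.00046) without overlap. IRF4, IRF8, MITF and KLF4 were the other factors that fell, with log2 fold changes of -0.84, -0.41, -0.64 and -0.90. SPI1, the master factor of myeloid cells, had 599.9 ± 125 GeTMM in SF and 708 ± 65.1 in ISF (adjusted p = 0.183).

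The calls at 96 hours were also counted at the other time points. Of the 1524 genes called at 96 hours, 128 were also called at 48 hours, 1329 at 6 days and 735 at 10 days. These are counts past a threshold in separate comparisons with 7 or 8 horses per fluid. Totals called at those other points are not given here, so no share over all genes stands beside these overlaps. The change of the difference itself was tested by an interaction term. From 48 to 96 hours it passed in 3 of 14570 genes (0.0206%) by limma, with 806 at an unadjusted p below 0.05 and none by limma voom on the recovered reads. With the replicate block it passed in 27 genes as labelled and 32 with the labels exchanged, with library weights in 207, and with the block within the compared groups in 209 and 365, so this count depended on the fit. From 96 hours to 6 days it passed in none by limma, with 881 at an unadjusted p below 0.05, and in none by voom.

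**Figure D5:**
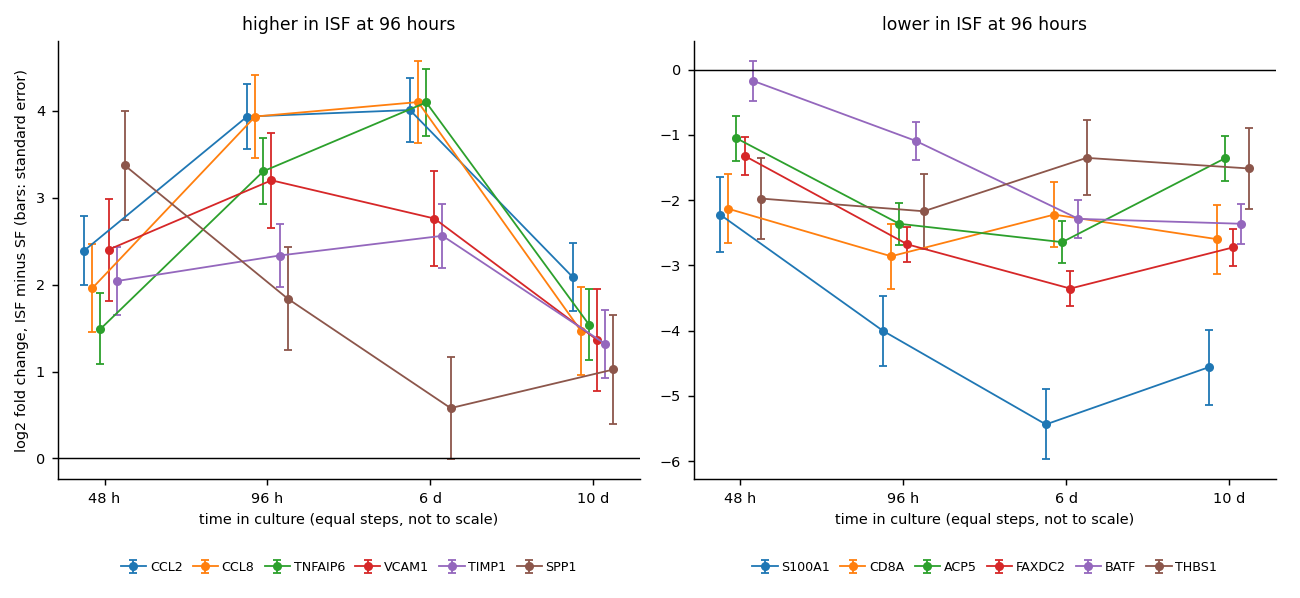
Log2 fold change of ISF minus SF over 4 time points for 6 genes higher and 6 lower in ISF at 96 hours, with bars for the standard error and time points at equal steps. CCL2 stands at 2.39, 3.94, 4.01 and 2.09, and S100A1 at -2.22, -4.0, -5.44 and -4.56.

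The log2 fold change of CCL2 at 48 hours was 2.39 beside 3.94 at 96 hours, and later points gave 4.01 (6 days) and 2.09 (10 days), all past the test. CCL8 followed a like course with 1.96, 3.94, 4.10 and 1.47. For TNFAIP6 the 4 values were 1.49, 3.31, 4.10 and 1.54. SPP1 had its highest value at 48 hours, 3.37, followed by 1.84, 0.58 and 1.02, and did not pass at the 2 later points (adjusted p = 0.497 and 0.265). Of the genes that fell, S100A1 had -2.22, -4.0, -5.44 and -4.56, and CD8A stayed between -2.86 and -2.13 throughout. BATF had -0.17 at the first point (adjusted p = 0.877) and then -1.09, -2.29 and -2.36. None of these 7 genes passed the interaction test from 48 to 96 hours without the block, which does not show that the difference stayed the same. Their result with the block is not given here.

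Many calls were lost in fits that left out a horse. Such a fit drops all libraries of that horse and rests on fewer of them, so a call near the threshold can be lost whichever horse is left out. KLF9, with an adjusted p of 0.0438 by limma, lost its call for 7 of the 8 horses in turn. The total was 882 without Dreamer, 939 without Lurie, 958 without Dealings, 983 without Ollie and 2508 without Moon. With only Moon's SF library of 6 days left out, which is not part of the comparison at 96 hours, it was 2438. Of the 101 called genes named by the rule, 65 were called whichever horse was left out and 36 were not, and none lost its call when the horse was kept as a block. All 30 leading genes were among the 65, but the rule took them only from called genes with the same direction in 8 of 8 horses. IGF1, outside the 30, fell further than some of them and was among the 36. The 36 include BCL11B, CD6 and TRAT1 of the T cell list, KLRD1, PAX5, CCNB1, MCM5 and PLK1, SPP1, CXCL1, CXCR4 and CX3CR1, HLA-DOB, C3AR1, CD14, TICAM1, TLR6, IL18, KLF4, KLF9 and TSC22D3. They also include IGF1, IGFBP6, IL34, ITGB3, HMOX1, HSPA5, LPL, CPT1A, CST3, TIMP2, FSCN1, BATF, S100A11, ATP6V1B2 and MCOLN1. The calls lost numbered 25 without Lurie, 24 without Dealings, 23 without Dreamer, 23 without Ollie, 13 without Flash, 12 without Catnip, 8 without RimRun and 1 without Moon, with an adjusted p of at most 0.204. Of the further called genes named above, CCL17, GSR, IRF4, IRF8, MCM2, MCM7, MITF, NFE2L2, PDGFB, PGAM1, RUNX3, SLC16A1 and TNFRSF11A also lost their call without at least 1 horse.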

How the data were processed

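RNA of horse BMNC cultures was sequenced as stranded paired-end libraries. Per the labels and the study's methods, the authors trimmed reads, aligned them with STAR 2.7.2a to EquCab3.0 with Ensembl genes, counted reads per gene and scaled them with edgeR. The deposited values are GeTMM, which are RPKM-like: reads per kilobase of gene relative to the library total, scaled between libraries by the authors. The strand setting of the counting is not given in the sources used here. The columns were mapped to samples by their names. Reads recovered from the steps between values were whole, within 0.02 reads, for 24064 of 24065 genes above 0.

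A gene was tested where 7 or more of the 68 libraries had 0.5 GeTMM or more (14570 of 24065). One limma 3.58.1 fit (R 4.3.3) of log2(GeTMM + 1), with a pseudocount of 1, held all 68 libraries in their 9 groups of fluid and time with no term for the horse. The contrast was ISF against SF at 96 hours, and p-values were adjusted by Benjamini-Hochberg. In simulated data for this comparison with 200 changed genes of 14570, 84% of changes of log2 size 1 and 98% of size 2 were recovered, and 4.21% of calls were false. The changes were placed only in genes above a minimum SF level, and each library was drawn without a horse effect. These shares therefore do not carry over to genes of low level or to paired libraries. Pairs come from the same horse. The residuals of the paired ISF and SF libraries correlated at 0.342 to 0.508 in the 6 horses with clear labels, at -0.015 for Dealings and -0.217 for Dreamer as labelled, and at 0.414 and 0.327 with the labels exchanged. Fits with the horse as a replicate block are alternatives.

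Genes named in the text are the 15 highest and 15 lowest fold changes among called genes of at least 5 GeTMM that moved the same way in 8 of 8 horses under both assignments, and up to 4 called members of each list with the largest changes. Other list members are given where a list needs them, and a few named by the rule are not reported here. The 34 gene lists held 602 symbols, of which 534 were found and 510 tested. The rule, the members and the lists were chosen with earlier results of these data known. Alternatives were limma voom on recovered reads, other pseudocounts and filters, sample weights, the 16 libraries and their 48 hour and 6 day counterparts apart from the rest, and leaving out each horse. No sequences or genome of EquCab3.0 were used here.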

Additional observations from a re-analysis of the deposited data

Results flagged for a closer look

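Of 130 groups of 8 libraries checked, 7 had a library far from the others, where chance alone flags about 1 in 20 groups. The value given is the gap to the nearest library divided by the range of the group. CCL2 in SF was flagged for Catnip, 9.25 on the log2 scale against 8.16 in the next library, with a gap of 0.723 of the range, and without Catnip the gene kept its call. The mean of CC chemokines and receptors in SF was also highest in Catnip, 4.12 against 3.75, with a gap of 0.547. The mean of fibroblast or stromal markers was highest in the library labelled Dealings in both fluids, 0.939 against 0.362 in ISF with a gap of 0.627, and 2.97 against 1.25 in SF with a gap of 0.583. By expression the ISF library with this label was closest to Dreamer, so these libraries may come from different horses. The mean of inflammatory cytokines and NF-kappaB regulators in SF was lowest in Dealings, 3.49 against 3.74, with a gap of 0.589. RimRun had the highest mean of the unfolded protein response in SF, 6.55 against 6.24, with a gap of 0.572. Lurie had the highest mean of glucocorticoid-responsive genes in ISF, 5.59 against 5.30, with a gap of 0.594.

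For 3 genes the difference between the fluids changed from 48 to 96 hours by the interaction term in limma, none of them by voom. The entry ENSECAG00000028085 changed by 2.18 on the log2 scale (adjusted p = 0.0487), the entry ENSECAG00000032497 by -1.54 (adjusted p = 0.0331), and WNT4, a secreted ligand of the Wnt family, by 0.723 (adjusted p = 0.0487). WNT4 rested on 0 to 11 reads per library at 96 hours. These genes were chosen after their values were seen.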

How the results depend on the processing

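The 1524 calls at 96 hours, 898 higher and 626 lower in ISF, moved with the design of the fit. The number called was 4206 with sample weights (2286 higher, 1920 lower), 2686 in a fit of the compared groups alone (1506 and 1180), 2431 with the replicate block as labelled (1108 lower), 2525 with it exchanged (1357 higher, 1168 lower), 3680 with a block within the compared groups (2026 and 1654) and 4471 with that block exchanged (2327 and 2144), 965 lower with it and without Dealings and Dreamer, 2438 with Moon's SF library of 6 days left out (1405 and 1033), and 901 without the 2 doubtful ISF libraries (516 and 385). Leaving out each horse gave 882 to 2508 (514 to 1454 higher, 368 to 1054 lower), and a limit of 1 on the log2 change gave 402 (232 and 170). It was 1532 by voom, 1506 with a pseudocount of 0.1, 1546 with a stricter filter and 1243 without a filter. The interaction from 48 to 96 hours, 3 genes, gave 207 with weights, 5 in the compared groups alone, 27 and 32 with the block as labelled and exchanged, 7 with the block without the 2 doubtful libraries, 209, 365 and 15 for the block within the compared groups as labelled, exchanged and without Dealings and Dreamer, 1 with the stricter filter, and 0 by voom, with a pseudocount of 0.1 and without the 2 doubtful libraries. Leaving out each horse gave 0 to 14, and 0 to 1 for the interaction from 96 hours to 6 days. The cause of these shifts was not tested, and fits with libraries left out also rest on fewer of them. Moon's SF library of 6 days lies outside the comparison at 96 hours. It had the highest GeTMM sum of the series, 2321939.6, and the next highest was 1458341.7 in Ollie's uncultured cells. Leaving out this library alone gave 2438 calls, beside 2508 without all libraries of Moon. Of 101 called genes named by the rule, 61 were called under every alternative, none changed sign, 10 lost their call by voom and 26 without the 2 doubtful libraries. The block lost none with all libraries, and SLAMF9 alone among the 30 leading genes missed the threshold once, with the block and without Dealings and Dreamer. At 16.9 M reads on genes or more, genes near 1 GeTMM rest on few reads.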

Other observations

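Further called genes stood outside the lists and were chosen after their values were seen, so they stand for no group of genes. DUSP4, a phosphatase of mitogen-activated kinases, went from 3.39 ± 4.56 GeTMM in SF to 14 ± 8.92 in ISF (log2 fold change 2.00 ± 0.43, adjusted p = 0.000839), the related DUSP6 from 15.7 ± 3.68 GeTMM in SF to 58.7 ± 26.2 in ISF (log2 fold change 1.71 ± 0.25, adjusted p = 1.84e-06), and SPRY2, an inhibitor of receptor kinase signalling, from 5.53 ± 1.13 GeTMM in SF to 22.2 ± 9.95 in ISF (log2 fold change 1.72 ± 0.27, adjusted p = 4.69e-06). The ETS factors ETV1 and ETV5 had log2 fold changes of 1.52 ± 0.31 and 1.22 ± 0.28, and the AP-1 member FOSL1 1.67 ± 0.29. The prostaglandin D2 synthase HPGDS went from 20.8 ± 7.22 GeTMM in SF to 5.33 ± 3.37 in ISF (log2 fold change -1.89 ± 0.25, adjusted p = 1.75e-07), and the prostacyclin receptor PTGIR from 1.89 ± 1.15 GeTMM in SF to 6.49 ± 3.36 in ISF (log2 fold change 1.28 ± 0.31, adjusted p = 0.00354). SUCNR1, the receptor of succinate, went from 5 ± 3.01 GeTMM in SF to 35.6 ± 25.7 in ISF (log2 fold change 2.32 ± 0.40, adjusted p = 3.64e-05), and GPR84, a receptor of medium-chain fatty acids, from 5.35 ± 2.59 GeTMM in SF to 14.9 ± 5.8 in ISF (log2 fold change 1.33 ± 0.32, adjusted p = 0.00285).

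The iron exporter SLC40A1, ferroportin, went from 83.8 ± 65.4 GeTMM in SF to 19.8 ± 8.8 in ISF (log2 fold change -1.88 ± 0.48, adjusted p = 0.00505). The iron transporters SLC11A1 and SLC11A2 had log2 fold changes of 1.62 ± 0.31 and 1.24 ± 0.19. MLANA, best known as an antigen of pigment cells, went from 300.4 ± 127 GeTMM in SF to 120.4 ± 121 in ISF (log2 fold change -1.80 ± 0.46, adjusted p = 0.00511). The sphingolipid enzymes UGCG and SMPD2 and the related SMPDL3A had log2 fold changes of -1.37 ± 0.29, -1.34 ± 0.28 and -1.20 ± 0.24. PLAUR, the urokinase receptor, went from 27.5 ± 9.22 GeTMM in SF to 109 ± 48.7 in ISF (log2 fold change 1.87 ± 0.29, adjusted p = 3.96e-06), and the anticoagulant receptor THBD, thrombomodulin, from 4.69 ± 3.69 GeTMM in SF to 16 ± 8.71 in ISF (log2 fold change 1.70 ± 0.37, adjusted p = 0.00108). IL1R2, the decoy receptor of interleukin-1, went from 18.5 ± 10.1 GeTMM in SF to 76 ± 26.6 in ISF (log2 fold change 2.10 ± 0.39, adjusted p = 9.83e-05), and VDR, the vitamin D receptor, from 13.5 ± 7.66 GeTMM in SF to 39 ± 9.76 in ISF (log2 fold change 1.66 ± 0.31, adjusted p = 0.000128). CA2, the carbonic anhydrase of osteoclasts, went from 3.63 ± 1.94 GeTMM in SF to 34.8 ± 35 in ISF (log2 fold change 2.29 ± 0.66, adjusted p = 0.0157), a call lost without Dealings or Lurie. HSD11B1, which regenerates active glucocorticoid, went from 47.7 ± 28.8 GeTMM in SF to 177 ± 93.5 in ISF (log2 fold change 1.96 ± 0.53, adjusted p = 0.00988), a call lost without Dreamer. The deacetylase SIRT2 had 33.4 ± 4.63 GeTMM in SF and 31.6 ± 4.59 in ISF (adjusted p = 0.787).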
